A study of Macaca fascicularis with 21 samples.

Results

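Primordial germ cells and amnion of cultured cynomolgus monkey (Macaca fascicularis) embryos were compared at day 16, in the cells that the deposited annotation labels E-PGC on one side and L-AM1 or L-AM2 on the other. The members were chosen by those labels and by the day in the cell names. They were 60 cells, 18 E-PGC and 42 amnion (18 L-AM1 and 24 L-AM2), of 336 cells of day 16 and 1453 cells in the series. Blastocysts had been freed of the zona pellucida and grown one to a well on Matrigel, a basement membrane gel, with serum raised from the time of attachment. No embryo was given a treatment or a genetic change in the labels, so all 4 embryos of day 16 form a single condition, and the comparison is between cell types inside each embryo. Extra-embryonic tissue was trimmed away before the disc-like part was dissociated and cells were picked singly, so shares of types describe picked cells. The series holds 21 embryos in all.

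Primordial germ cells are the founders of eggs and sperm. In primates they are specified around the time of gastrulation under BMP and WNT signals, with SOX17, TFAP2C and PRDM1 (BLIMP1) as the core transcription factors, and they keep pluripotency genes such as POU5F1 while they shut off somatic ones. The amnion is the thin epithelium that closes the amniotic cavity. It comes from epiblast, secretes BMP4, and carries TFAP2A, GATA3, ISL1 and simple epithelial keratins; in the cynomolgus monkey, early germ cells have been described close to it.

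Germ cells made up 1, 5, 7 and 5 of the cells of embryos 1, 2, 3 and 4, which is 1.14%, 5.81%, 8.24% and 6.49% of each embryo's cells. Amnion made up 12, 11, 11 and 8 cells. No cell of the other 17 embryos was labelled E-PGC, while 4 were labelled L-AM1 and 3 L-AM2. Counts were summed per embryo and side where a side had at least 3 cells, which left embryos 2, 3 and 4. Their germ cell sums held 529613, 1027374 and 99053 counts and their amnion sums 1262760, 1416843 and 450226, so the germ cell sum of embryo 4 was the shallowest. The median cell held 40104 counts and 4974.5 detected genes among germ cells, and 66898 counts and 5551.5 genes in amnion. Median counts per cell did not separate the sides within embryos (germ cells deeper in 1 of 3 embryos, exact permutation p = 0.75, 2-sided, where 0.25 is the smallest possible).

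The labels were checked against marker genes. The 6 germ cell markers (NANOS3, PRDM1, SOX17, TFAP2C, DND1, KIT) summed to 623 to 1049 CPM (counts scaled to a library of 1000000) in the germ cells of embryos 2 to 4, 64.5 to 145 CPM in their amnion and 16.0 to 77.8 CPM in their late epiblast (label postL-EPI, 101 cells). All 6 had a count in germ cells. The 7 amnion markers (ISL1, GABRP, TFAP2A, VTCN1, WNT6, KRT7, GATA3) summed to 1091 to 1439 CPM in amnion and 39.3 to 241 CPM in germ cells, where WNT6 was at 0. The annotation was made by the authors from the same expression values, so differences in such markers are no independent evidence for the labels.

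The 2 amnion labels were unlike each other. The 7 amnion markers summed to 1018 to 2115 CPM in L-AM2 and 297 to 466 CPM in L-AM1. The 6 epiblast markers (SOX2, DPPA4, DNMT3B, ZIC2, SFRP2, OTX2) summed to 932 to 1473 CPM in L-AM1, against 28.9 to 152 CPM in L-AM2 and 1645 to 2044 CPM in the late epiblast of embryos 2 to 4. Cells labelled L-AM1 thus held more summed CPM of the epiblast set than of the amnion set, so reading that label as amnion alone is uncertain. Much of that epiblast sum was 1 gene, DNMT3B, at 688, 661 and 1103 CPM in L-AM1 of embryos 1, 3 and 4. The order of the 2 sums therefore rests largely on it. The embryos also differed in their mix of labels, with 8, 2, 4 and 4 L-AM1 and 4, 9, 7 and 4 L-AM2 cells in embryos 1 to 4. Results that rest on this mix are given below for each label.

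Other cell types were looked for in the same way. The 6 markers of extraembryonic mesenchyme summed to 319 to 797 CPM in germ cells and 315 to 1176 CPM in amnion, against 13560 to 22740 CPM in the mesenchyme itself. The 6 endoderm markers summed to 37.5 to 399 CPM in germ cells, with APOA4 and AFP at 0, and to 26.5 to 176 CPM in amnion, against 8744 to 15930 CPM in endoderm. The 6 trophoblast markers reached at most 98.7 CPM in germ cells and 91.8 CPM in amnion, with ELF5 at 0 in both. The 6 markers of gastrulating cells (MIXL1, EOMES, MESP1, TBX6, T and SNAI2), of which T is a gene named below, all had a count in germ cells. They summed to 83.0 to 255.6 CPM there, inside the 25.7 to 362.5 CPM of the gastrulating cells themselves, and to 3.03 to 57.0 CPM in amnion, with MESP1 and SNAI2 at 0. T alone made up 132, 126 and 74.7 CPM of the sums in germ cells of embryos 2, 3 and 4. The part of RNA of other cell types in the results below was not tested.

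**Figure D1:**
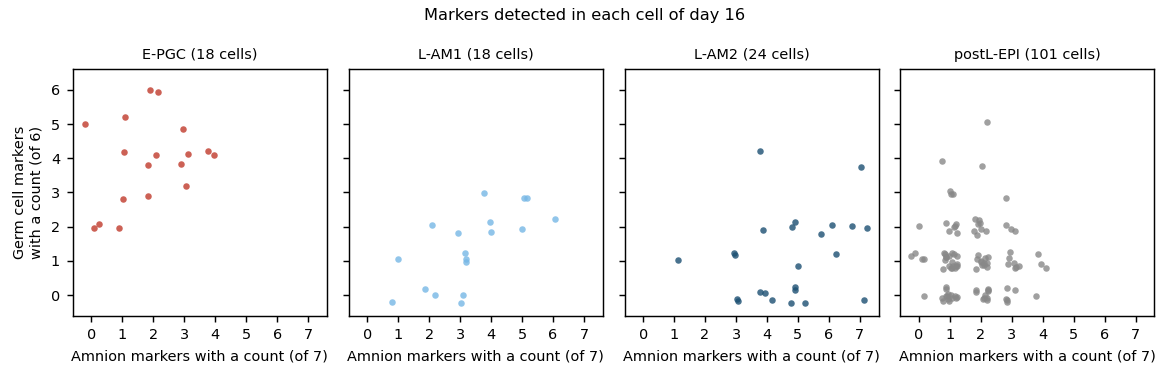
Each point is 1 cell of day 16, placed by how many of 7 amnion markers (horizontal axis) and of 6 germ cell markers (vertical axis) had at least 1 count, with small random offsets so that points do not overlap. Of 18 E-PGC cells, 12 held 4 or more germ cell markers, while 19 of 24 L-AM2 cells and 7 of 18 L-AM1 cells held 4 or more amnion markers.

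Across all genes, germ cells and amnion of the same embryo were compared with edgeR's quasi-likelihood test, with the embryo as a block, over 9773 genes. At an adjusted p under 0.05, 223 genes differed, 2.28% of those tested. Of these, 59 were higher in germ cells (0.604% of genes tested) and 164 higher in amnion (1.68%). At an unadjusted p under 0.05, 959 of the 9773 genes differed. Counts of list members below are to be read beside these shares of all genes. The median gene had a log2 fold change of -0.21. Leaving out embryo 2 or 3 lowered the count to 87 or 109, and without embryo 4, whose germ cell sum was shallow, it was 218. Against L-AM2 alone the count was 282 and against L-AM1 alone, in embryos 3 and 4, it was 48.

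**Figure D2:**
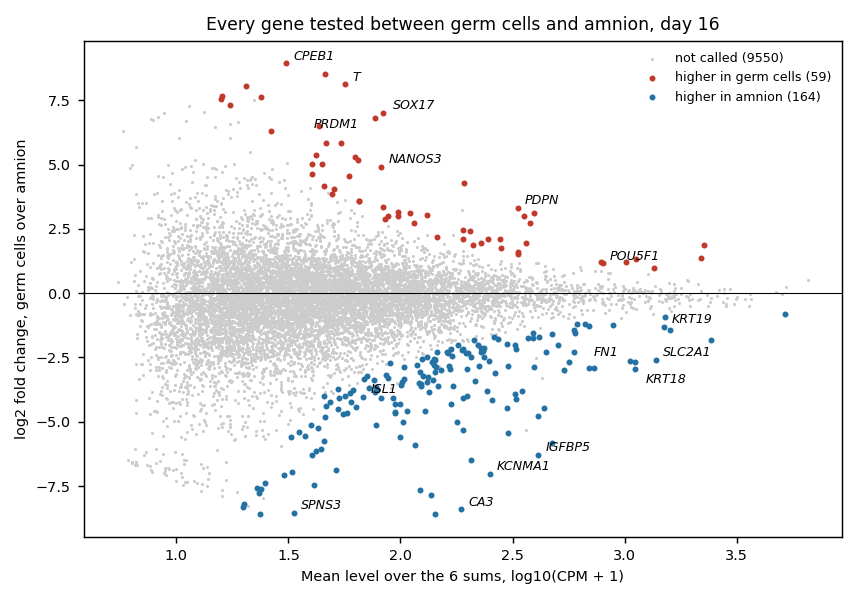
Each point is 1 of the 9773 genes tested, with its mean level over the 6 sums on a log10 scale (horizontal axis) and its log2 fold change of germ cells over amnion (vertical axis). Of the 223 genes that passed the test, 59 lie above 0 (red) and 164 below (blue), and SOX17, PRDM1, T and CPEB1 are among the genes farthest above.

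Of 28 listed genes of germ cell specification, 20 were tested, 7 were higher in germ cells (NANOS3, PRDM1, SOX17, TFCP2L1, PDPN, MKRN1 and POU5F1) and 0 were lower. At an unadjusted p under 0.05 in edgeR 11 were higher and 0 lower, beside 959 of all 9773 genes in either direction. DESeq2 and limma-voom called 8 and 9 higher and 0 lower. The median log2 fold change of the 20 was 2.03, beside -0.21 over all genes tested. Since several of these genes name the cell type, their direction was set by the annotation.

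SOX17, an SRY-box factor at the top of the primate germ cell program, stood at 96.5, 185 and 208 CPM in the germ cells of embryos 2, 3 and 4. In the amnion of the same embryos it stood at 0.756, 0.731 and 2.48 CPM, so the groups did not overlap. The log2 fold change was 7.01 ± 1.11 (standard error; adjusted p = 7.25e-08), and the ratio of summed counts was 164 (95% exact counting interval 55.5 to 799, from 285 against 3 counts). A SOX17 count was seen in 13 of 18 germ cells and 3 of 42 amnion cells. SOX17 also serves endoderm, and the endoderm of day 16 held 5.93 to 72.5 CPM of it.

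PRDM1, a transcriptional repressor of the somatic program, stood at 252, 90.6 and 108 CPM in germ cells and at 2.27, 0 and 2.48 CPM in amnion. All 3 germ cell sums lay far above the amnion sums (log2 fold change 6.82 ± 1.14, adjusted p = 5.79e-07). It had a count in 12 of 18 germ cells (66.7%, exact 95% interval 41.0% to 86.7%) and 4 of 42 amnion cells (9.52%, 2.66% to 22.6%). These intervals treat the cells pooled over embryos as independent and do not cover variation between embryos. In embryo 2, 75.2% of its 141 germ cell counts came from 1 cell. Like SOX17, it kept its call without any 1 of the 3 embryos; the call was lost on thinned cells (adjusted p = 0.0762), on means of per-cell CPM (0.0601) and against L-AM1 alone (0.204). The endoderm of day 16 also held PRDM1, at 52.4 to 118.5 CPM.

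NANOS3, an RNA-binding protein that keeps migrating germ cells alive, stood at 331, 50.2 and 91.3 CPM in germ cells and at 4.54, 8.05 and 0 CPM in amnion. The groups did not overlap, and embryo 2 was the highest (log2 fold change 4.91 ± 1.03, adjusted p = 0.000284). Single cells carried much of it, with 66.5%, 66.1% and 81.8% of the germ cell counts of embryos 2, 3 and 4 in the top cell. Without embryo 2 the call was lost (log2 fold change 4.20, adjusted p = 0.450), as it was against L-AM1 alone (3.33, adjusted p = 0.865). NANOS3 had a count in 10 of 18 germ cells. All of NANOS3, PRDM1 and SOX17 were seen together in 6 of the 18, and 2 held none of them, in cells whose depth ran from 7910 to 451044 counts.

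PDPN, podoplanin, a surface glycoprotein used to sort germ cells, stood at 559.5, 813 and 440.0 CPM in germ cells and at 58.2, 79.0 and 47.1 CPM in amnion. Every germ cell sum was above every amnion sum, the amnion of embryo 1 included at 189.5 CPM. The log2 fold change was 3.32 ± 0.48 (adjusted p = 1.34e-09). All 18 germ cells had a PDPN count, as had 27 of 42 amnion cells. TFCP2L1, a factor of naive pluripotency, was at 53.6, 96.9 and 74.7 CPM in germ cells and at most 5.12 CPM in amnion (4.62 ± 1.30, adjusted p = 0.0230). Its call was lost without embryo 2 (adjusted p = 0.326) and without embryo 3 (adjusted p = 0.342).

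The markers TFAP2C and DND1 did not pass the test. TFAP2C, the AP-2 factor that acts beside SOX17, stood at 186, 216 and 124.5 CPM in germ cells and at 120, 96.5 and 49.6 CPM in amnion. The ranges only just cleared each other, and the log2 fold change was 1.06 ± 0.64 (adjusted p = 0.670), with TFAP2C far lower in late epiblast, at 1.69 to 13.5 CPM. DND1, an RNA-binding partner of NANOS proteins, was at 17.9, 131 and 16.6 CPM in germ cells and at 14.4, 6.58 and 0 CPM in amnion (2.92 ± 1.49, adjusted p = 0.509). Its value in germ cells rested on embryo 3.

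**Figure D3:**
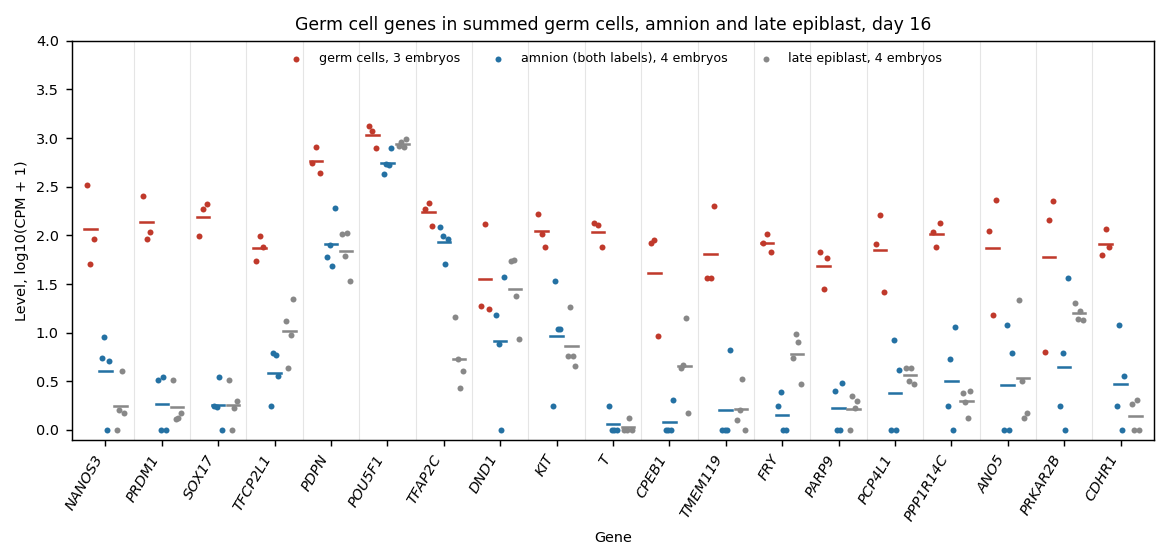
Each point is the level of 1 gene in the summed cells of 1 embryo, as log10(CPM + 1), for germ cells (3 embryos), amnion (4) and late epiblast (4), and bars are means of these log values. For SOX17, PRDM1 and T all germ cell sums lie above all amnion and epiblast sums, while for TFAP2C germ cells and amnion lie close together, both above epiblast.

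Among called genes that pointed the same way in every embryo and reached a mean of 50 CPM on the higher side, the 12 with the largest differences toward germ cells were CPEB1, TMEM119, T, SOX17, PRDM1, FRY, PARP9, PCP4L1, PPP1R14C, ANO5, PRKAR2B and CDHR1, with log2 fold changes from 8.94 to 5.03. T (TBXT, brachyury), a T-box factor of the primitive streak, stood at 132, 126 and 74.7 CPM in germ cells and at 0.756, 0 and 0 CPM in amnion. That is 223 counts against 1, a ratio of 384 (95% exact counting interval 68.3 to 15250), and a log2 fold change of 8.12 ± 1.44 (adjusted p = 3.60e-06). T was seen in 14 of 18 germ cells and in 1 of 42 amnion cells. Of 9 streak and mesoderm genes tested it was the only one higher in germ cells, and HAND1, a factor of extraembryonic mesoderm and amnion, was the only one lower (-2.18 ± 0.55, adjusted p = 0.00756). HAND1 stood at 67.9, 305 and 16.6 CPM in germ cells and at 307, 301 and 957 CPM in amnion, ranges that overlapped. Its call was lost without embryo 2 (adjusted p = 0.556) or embryo 4 (0.639).

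CPEB1, which controls polyadenylation and translation of stored mRNA in oocytes, was at 82.2, 88.8 and 8.30 CPM in germ cells and at 0 in the amnion of the same embryos. Summed over embryos it was at least 83.9-fold higher in germ cells, against a floor of 3 counts over the amnion sums. The germ cell value of embryo 4 was a single count, and 87.0% of the counts of embryo 2 came from 1 cell. TMEM119, a membrane protein of bone and microglia, was at 35.8, 35.9 and 199 CPM and likewise at 0 in the amnion of these embryos. Summed over them it was at least 48.3-fold higher in germ cells. Both bounds leave out the amnion of embryo 1, outside the fit, which held 5.70 CPM of TMEM119 and 1.04 CPM of CPEB1. The extraembryonic mesenchyme of day 16 held TMEM119 too, at 24.8 to 31.2 CPM.

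FRY, a scaffold of cell polarity and mitosis, was at 82.2, 102 and 66.4 CPM in germ cells and at most 1.46 CPM in amnion. PPP1R14C, an inhibitor of protein phosphatase 1, was at 107, 75.4 and 133 CPM and at most 4.39 CPM in the amnion of the same embryos. In the amnion of embryo 1, outside the fit, it was at 10.35 CPM. PARP9, an ADP-ribosyltransferase family member, and the small protein PCP4L1 were lower, at 26.9 to 66.1 and 24.9 to 161 CPM in germ cells. The endoderm of day 16 held PCP4L1 at 95.2 to 331.6 CPM, with a median of 184 CPM against 80.45 CPM in germ cells. Extraembryonic mesenchyme held 17.4 to 45.2 CPM of it. The sides of these 4 genes did not overlap, which the choice by size and direction favours. Their adjusted p ran from 0.000507 (PPP1R14C) to 0.0168 (PARP9).

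ANO5, a membrane protein of the anoctamin family, was at 111, 14.4 and 232.5 CPM in germ cells and at 0, 11.0 and 0 CPM in amnion (5.27 ± 1.43, adjusted p = 0.0150), with 79.0%, 93.8% and 96.4% of its germ cell counts in the top cell of each embryo. PRKAR2B, a regulatory subunit of protein kinase A, was at 5.36, 144 and 224 CPM and at 0.756, 5.12 and 0 CPM. For both, the lowest germ cell sum lay just above the highest amnion sum of these embryos, and the amnion of embryo 1, which is outside the fit, held 35.2 CPM of PRKAR2B. CDHR1, a cadherin of photoreceptors, was at 62.6, 114 and 74.7 CPM in germ cells and at most 11.0 CPM in amnion (5.03 ± 1.30, adjusted p = 0.00903). Without embryo 2 the calls of FRY, PARP9, PCP4L1, PPP1R14C, ANO5 and CDHR1 were lost (adjusted p from 0.0729 to 0.710). Those of FRY, PARP9, PCP4L1 and CDHR1 were also lost without embryo 3 (0.0794 to 0.208), and those of PARP9 and ANO5 without embryo 4 (0.0628 and 0.504). CPEB1 and PRKAR2B could be fitted in 1 of these 3 sets, and the calls of T and TMEM119 held in all 3.

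Surface and adhesion genes that germ cells use in migration moved both ways. Of 16 listed, 12 were tested, 4 were higher in germ cells (KIT, CDH2, PECAM1 and PDPN) and 2 were lower (CXCL12 and EPCAM), with a median log2 fold change of 0.42. KIT, the receptor for stem cell factor, stood at 166, 103 and 74.7 CPM in germ cells and at 0.756, 32.9 and 9.92 CPM in amnion (3.60 ± 1.08, adjusted p = 0.0404). CDH2, N-cadherin, was at 204, 156 and 83.0 CPM against 11.4, 36.6 and 17.4 CPM (2.87 ± 0.86, adjusted p = 0.0407). PECAM1, an adhesion molecule of endothelium, was at 74.7 to 104 CPM in germ cells and at most 12.4 CPM in amnion (3.84 ± 1.14, adjusted p = 0.0381). The sides were apart in every embryo in each of the 3, which were named because the test called them.

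On the other side of that list was CXCL12, the chemokine that guides germ cells through the receptor CXCR4. It stood at 356, 313 and 434 CPM in amnion and at 14.3, 61.9 and 0 CPM in germ cells (-4.01 ± 0.66, adjusted p = 3.28e-07). The receptor CXCR4 was not called (log2 fold change 0.952, adjusted p = 0.9935). A CXCR4 count was seen in 3 of 18 germ cells and 7 of 42 amnion cells. EPCAM, an epithelial adhesion protein, was at 1005, 558 and 622 CPM in amnion and at 279, 80.8 and 124.5 CPM in germ cells (-2.28 ± 0.41, adjusted p = 6.39e-06). KIT, CDH2 and PECAM1 lost their calls without embryo 2 (adjusted p = 0.857, 0.721 and 0.306) and without embryo 3 (0.0933, 0.299 and 0.313), and PECAM1 also without embryo 4 (0.0628). CXCL12 and EPCAM kept theirs without any 1 of the 3 embryos.

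Pluripotency genes differed in both directions. Of 22 listed, 19 were tested, 1 was higher in germ cells (POU5F1) and 2 were lower (DNMT3B and TERF1). Over all genes tested, 2.28% were called. The median log2 fold change of the list was -0.65. POU5F1 (OCT4), the central factor of pluripotency, was at 1330, 1170 and 797 CPM in germ cells and at 428, 535 and 526 CPM in amnion. The amnion of embryo 1, outside the fit, held 784 CPM, close to the lowest germ cell sum. The log2 fold change was 1.17 ± 0.32 (adjusted p = 0.0185), and it missed the threshold without embryo 2 (adjusted p = 0.311) or embryo 3 (0.265). Reads from POU5F1 pseudogenes cannot be told apart here, since the counting rule is not stated.

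DNMT3B, the de novo DNA methyltransferase of epiblast, was at 67.9, 43.1 and 108 CPM in germ cells and at 164, 389 and 598 CPM in amnion (-2.27 ± 0.55, adjusted p = 0.00356). It was the only member called among the 10 tested of 13 genes that write, read or erase DNA methylation (median -0.69). TET1, which oxidises methylated cytosine, was at 125, 145 and 174 CPM in germ cells and 315, 274 and 213 CPM in amnion, short of the threshold (-0.82 ± 0.53, adjusted p = 0.732). TERF1, a telomere protein, was at 484.5, 199 and 33.2 CPM in germ cells and 694, 708 and 377 CPM in amnion, and its ranges overlapped (-1.72 ± 0.43, adjusted p = 0.00652). DNMT3B and TERF1 lost their calls without embryo 3 (adjusted p = 0.359 and 0.303), and TERF1 also without embryo 4 (0.157). Against L-AM2 alone the fold change of DNMT3B was 0.66 (adjusted p = 0.954) and that of TERF1 was -0.11 (0.990).

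Of 27 listed amnion genes, 25 were tested, 11 were higher in amnion (ISL1, GABRP, VTCN1, GATA3, KRT18, KRT8, KRT19, HAND1, DLX5, HEY1 and BMP4) and 0 were higher in germ cells, with a median log2 fold change of -2.24. In edgeR 1 was higher in germ cells at an unadjusted p under 0.05, and DESeq2 and limma-voom called 1 and 0. Here too the annotation set the direction. ISL1, a LIM homeobox factor of amnion and cardiac mesoderm, stood at 158, 136 and 76.9 CPM in amnion and at 1.79, 31.4 and 0 CPM in germ cells. The sides did not overlap (-4.04 ± 1.10, adjusted p = 0.0171), and ISL1 had a count in 29 of 42 amnion cells and 3 of 18 germ cells. The call was lost without embryo 2 (adjusted p = 0.667) and without embryo 3 (0.0602).

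GATA3, a factor of amnion and trophoblast, was at 170, 190 and 285 CPM in amnion and at 8.94, 55.6 and 74.7 CPM in germ cells (-2.50 ± 0.70, adjusted p = 0.0225). It failed without embryo 2 (adjusted p = 0.636) and without embryo 3 (0.177). The call was also lost with limma-voom, on thinned cells (0.0534) and on means of per-cell CPM (0.0668), among other settings. In the amnion of embryo 1, outside the fit, GATA3 was at 65.75 CPM, below the highest germ cell sum. HEY1, a target of Notch signals, was at 303, 168 and 64.5 CPM in amnion and at most 24.2 CPM in germ cells (-4.61 ± 1.01, adjusted p = 0.000646), and failed without embryo 2 (0.499). TFAP2A, an AP-2 factor of surface ectoderm and amnion, did not pass, at 297, 89.2 and 19.8 CPM in amnion and 23.2, 48.5 and 133 CPM in germ cells (-0.72 ± 0.90, adjusted p = 0.962). In embryo 4 TFAP2A was higher in germ cells. WNT6 had a count in 0 of 18 germ cells (exact 95% interval up to 18.5%, over pooled cells, without variation between embryos). It was at 7.44 to 46.8 CPM in the amnion of embryos 2 to 4 (adjusted p = 0.145), with 5.18 CPM in that of embryo 1.

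GABRP, a subunit of the GABA-A receptor, was at 414.5, 135 and 491 CPM in amnion and at 1.79, 10.8 and 16.6 CPM in germ cells (-5.02 ± 0.72, adjusted p = 1.39e-09). VTCN1 (B7-H4), an inhibitor of T cells, was at 355, 491 and 367 CPM in amnion and at 3.58, 1.79 and 16.6 CPM in germ cells (-6.50 ± 0.76, adjusted p = 9.73e-15). It had a count in 35 of 42 amnion cells and in 5 of 18 germ cells. Both genes kept their calls without any 1 of the 3 embryos. By label, GABRP was at 53.3, 4.07 and 0 CPM in L-AM1 of embryos 1, 3 and 4. In L-AM2 it was at 158.7 to 952 CPM. The L-AM1 values of embryos 3 and 4 lay below those of the germ cells, and GABRP could not be tested against L-AM1 alone. VTCN1 was also present in late epiblast, at 93.5 to 209 CPM, so here germ cells were the low side.

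By the same rule of direction and level, the 12 genes with the largest differences toward amnion were SPNS2, SPNS3, CA3, ATP12A, NTRK2, SLCO3A1, TGM2, KCNMA1, SLC22A23, VTCN1, IGFBP5 and NEDD9, with log2 fold changes from -8.57 to -6.29. DLX5, a called homeobox gene of the amnion list below that level, at 31.8, 57.8 and 24.8 CPM in amnion, was at 0 in germ cells (at least 25.3-fold higher in amnion, fitted log2 fold change -8.20, adjusted p = 0.0337). SPNS2, the exporter of sphingosine-1-phosphate, stood at 361, 235.5 and 250.5 CPM in amnion and at 1.79, 0 and 0 CPM in germ cells. With 900 counts against 1, the ratio was 522 (95% exact counting interval 93.5 to 20650; -8.57 ± 1.04, adjusted p = 1.71e-13). ATP12A, a proton pump, was at 165, 126.5 and 526 CPM against 1.79, 0 and 0 CPM, and 603 counts against 1 gave a ratio of 350 (62.6 to 13840). In embryos 2, 3 and 4, 89.9%, 76.9% and 92.5% of its amnion counts came from 1 cell. CA3, a carbonic anhydrase, was at 524, 445 and 141 CPM in amnion and at 1.79, 0.897 and 0 CPM in germ cells (-8.41 ± 0.93, adjusted p = 3.54e-16), with 93.0% of the amnion counts of embryo 4 in 1 cell.

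KCNMA1, a calcium-activated potassium channel, was at 560.5, 244 and 674.5 CPM in amnion and at 7.15, 0 and 8.30 CPM in germ cells (-7.02 ± 0.71, adjusted p = 3.55e-19). SLC22A23, of a family of organic ion carriers, was at 129, 51.2 and 124 CPM against 0, 0.897 and 0 CPM. SPNS3, a relative of SPNS2, had no count in any germ cell and 54.9 to 81.8 CPM in the amnion of embryos 2 to 4, at least 35.8-fold higher. In the amnion of embryo 1, outside the fit, SPNS3 was at 8.28 CPM and SLC22A23 at 11.9 CPM. SLCO3A1, an organic anion carrier, was also at 0 in germ cells and at least 25.7-fold higher in amnion, at 31.0, 7.31 and 203 CPM. In embryo 4 all SLCO3A1 counts of amnion came from 1 cell.

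IGFBP5, which binds insulin-like growth factors, stood at 1594, 143 and 682 CPM in amnion and at 8.94, 0.897 and 33.2 CPM in germ cells (-6.29 ± 0.56, adjusted p = 5.16e-25). By label, IGFBP5 was at 23.2 to 199 CPM in L-AM1 and 246.5 to 1876 CPM in L-AM2, and against L-AM1 alone the call was lost (-1.89, adjusted p = 0.999). NTRK2, the receptor for BDNF, was at 594, 78.3 and 54.6 CPM in amnion and at 3.58, 0 and 0 CPM in germ cells. NEDD9, a scaffold of focal adhesions, was at 113, 65.1 and 49.6 CPM against 0, 0 and 8.30 CPM. TGM2, a transglutaminase, had no count in germ cells, and its 5.30, 15.4 and 154 CPM in amnion came in embryo 4 from a single cell (at least 17.4-fold higher). The choice by size and by the same direction in every embryo favours genes whose sides do not overlap. The gap between the sides in these 12 genes is therefore no further support. Without embryo 2 the calls of SPNS3, NTRK2, TGM2, SLC22A23 and NEDD9 were lost (adjusted p = 0.115, 0.115, 0.148, 0.154 and 0.470), and those of SPNS3 and NEDD9 also without embryo 3 (0.151 and 0.358). SLCO3A1 could be fitted only without embryo 3 (0.0481).

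Of 27 genes of keratins and epithelium, 19 were tested and 6 were higher in amnion (KRT8, KRT18, KRT19, CDH3, EPCAM and DSP), with a median of -2.28. In edgeR at an unadjusted p under 0.05, in DESeq2 and in limma-voom, 0 were higher in germ cells. KRT18, a simple epithelial keratin, was at 2732, 1598 and 1523 CPM in amnion and at 127, 511 and 199 CPM in germ cells (-2.95 ± 0.32, adjusted p = 3.54e-16). Its partner KRT8 was at 2318, 1248 and 2155 CPM against 138, 512 and 316 CPM (-2.66 ± 0.32, adjusted p = 1.38e-13). KRT19 stood higher in germ cells than the other 2, at 733, 1219 and 631 CPM, and at 2661, 1786 and 1996 CPM in amnion (-1.32 ± 0.27, adjusted p = 0.000147). Reads of processed keratin copies may be counted with these genes.

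DSP, desmoplakin of the desmosome, was at 551, 284.5 and 1136 CPM in amnion and at 37.5, 71.8 and 0 CPM in germ cells (-3.82 ± 0.54, adjusted p = 4.59e-09). CDH3, P-cadherin, was at 625, 264 and 273 CPM against 55.4, 174 and 16.6 CPM (-2.49 ± 0.59, adjusted p = 0.00272). KRT19 and CDH3 missed the threshold without embryo 2 (adjusted p = 0.103 and 0.563), and the other 4 kept their calls without any 1 embryo. The DSP call was lost with DESeq2 (adjusted p = 0.113), on thinned cells (0.0971) and against L-AM1 alone (0.938). Matrix genes gave 4 of 22 tested higher in amnion (FN1, LAMB1, SPARC and TGFBI; median -1.26). FN1, fibronectin, was at 1994, 1869 and 1624 CPM in amnion and 222, 367 and 274 CPM in germ cells (-2.66 ± 0.31, adjusted p = 9.73e-15), and it was called without any 1 embryo. TGFBI, a matrix protein induced by TGF-beta, was at 983, 147 and 322 CPM against 62.6, 30.5 and 33.2 CPM (-3.12 ± 0.55, adjusted p = 2.73e-06). LAMB1 and SPARC were at 156 to 665 and 333 to 952 CPM in amnion and at 25.0 to 95.1 and 143 to 174 CPM in germ cells. Outside the fit, the amnion of embryo 1 held 94.2 CPM of LAMB1 and 142.9 CPM of CDH3, each below the gene's highest germ cell sum. TGFBI, LAMB1 and SPARC failed without embryo 2 (adjusted p = 0.242, 0.287 and 0.675), SPARC without embryo 3 (0.0512) and LAMB1 without embryo 4 (0.340).

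In each of the BMP and WNT pathways 1 gene passed the test, beside 2.28% of all genes tested. Of 24 genes of the BMP pathway tested, BMP4 was the only one called, at 348, 279 and 131 CPM in amnion and at 46.5, 49.4 and 8.30 CPM in germ cells (-2.88 ± 0.69, adjusted p = 0.00301). The list's median was -0.89, and the receptor BMPR2, next by adjusted p, was at 34.0, 60.1 and 116 CPM in germ cells and 126, 179 and 498 CPM in amnion (-1.81 ± 0.59, adjusted p = 0.0851). The BMP4 call did not hold without embryo 2 (adjusted p = 0.260) or embryo 3 (0.125). Of 16 WNT pathway genes tested (median -1.13), SFRP1, a secreted WNT antagonist, was the only one called, at 68.1, 146 and 526 CPM in amnion and 16.1, 0.897 and 8.30 CPM in germ cells (-4.59 ± 0.84, adjusted p = 1.13e-05). Its top cell held 75.4% to 78.9% of the amnion counts of each embryo. TCF7L2, a transcription factor of the pathway, gave -1.65 ± 0.53 (adjusted p = 0.0714).

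Of 17 DNA replication genes and 19 mitosis genes tested, 0 and 0 passed in edgeR, in DESeq2 and in limma-voom, and 0 had an unadjusted p under 0.05 in edgeR. Their medians were 0.23 and 0.18. PCNA, the sliding clamp of replication, was at 291, 273 and 74.7 CPM in germ cells and 126, 135 and 49.6 CPM in amnion (1.00 ± 0.60, adjusted p = 0.667), and CENPF, a kinetochore protein, gave -0.67 ± 0.35 (0.539). Of 24 genes of glycolysis and hypoxia, SLC2A1 (GLUT1), the glucose importer, was the only one called. It was at 3552, 2198 and 1203 CPM in amnion and 534.5, 728.5 and 83.0 CPM in germ cells (-2.60 ± 0.29, adjusted p = 1.07e-15), while GAPDH gave -0.51 ± 0.20 (0.239). Lists of other tissues gave GATA3 alone among 4 trophoblast genes tested, 0 of 16 genes of extraembryonic mesenchyme and 0 of 4 of endoderm, with medians of -0.34, -1.05 and 0.82. At an unadjusted p under 0.05 in edgeR 4 of the mesenchyme genes and 1 of the endoderm genes differed, beside 959 of all 9773 genes. DESeq2 called 1 and 0 of the 2 lists and limma-voom 0 and 0.

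**Figure D4:**
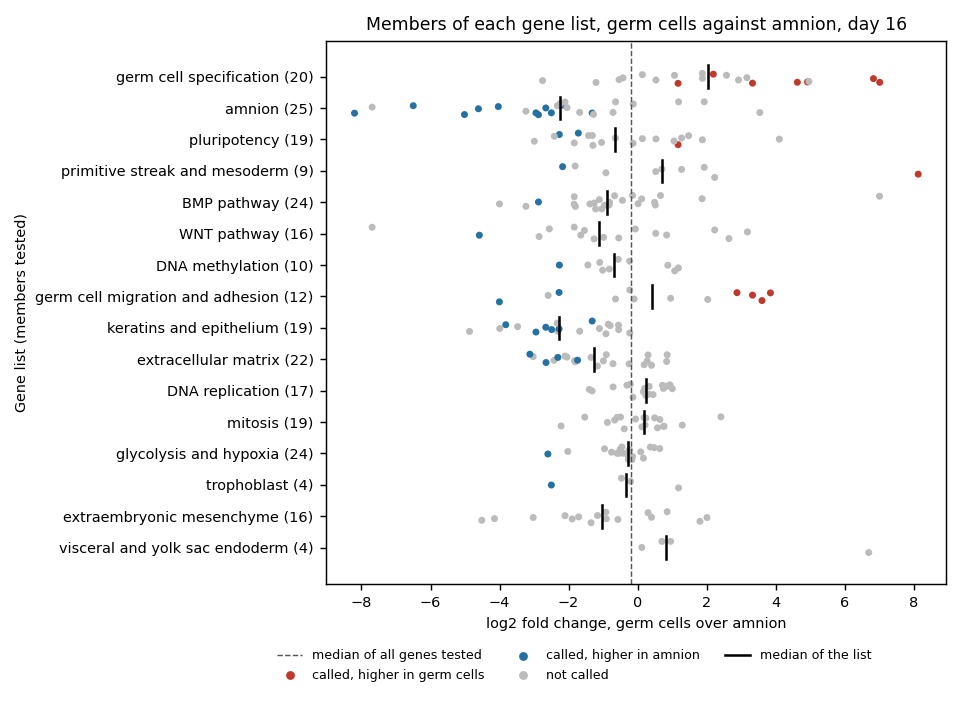
Each point is the log2 fold change of germ cells over amnion (horizontal axis) of 1 tested member of a gene list (rows, number tested in brackets), coloured where the test called it, with the list's median as a black bar. The 7 coloured germ cell specification genes lie to the right, 11 amnion genes and 6 epithelial genes lie to the left, and no replication or mitosis gene is coloured; the dashed line is the median of all genes, -0.21.

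Late epiblast of the same embryos was used to tell whether a gene was high on one side or low on the other. Each pair of these 3 contrasts shares a set of sums, so their counts are not independent. Germ cells differed from epiblast in 433 of 12079 genes (3.58%), 161 higher and 272 lower, in embryos 2 to 4. Amnion differed from it in 411 of 13536 genes (3.04%), 290 higher and 121 lower, in embryos 1 to 4. Of the 59 genes higher in germ cells than in amnion, 37 were also higher in germ cells than in epiblast and 0 lower; 44 of them were tested in amnion against epiblast, where 1 was higher and 0 lower. Of the 164 genes higher in amnion than in germ cells, 99 were higher in amnion than in epiblast and 3 lower, and of the 143 tested in germ cells against epiblast, 9 were higher and 20 lower.

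SOX17, PRDM1, NANOS3 and T were higher in germ cells than in epiblast by 8.20 ± 0.98, 8.32 ± 1.03, 6.49 ± 0.94 and 9.23 ± 1.26 on the log2 scale (adjusted p at most 1.29e-09). PDPN was higher by 3.28 ± 0.38 and KIT by 3.97 ± 0.87. POU5F1 was not apart from epiblast (0.26 ± 0.24, adjusted p = 0.728), at 814 to 982 CPM there. TFAP2C was higher than in epiblast on both sides, by 5.87 ± 0.80 in germ cells (adjusted p = 8.63e-11) and 4.26 ± 0.65 in amnion (adjusted p = 0.00251), and so was TFAP2A, by 4.50 ± 1.25 (0.0133) and 5.91 ± 0.75 (0.000672). In the list of germ cell specification 7 of 24 genes tested were higher in germ cells than in epiblast and 1 lower, and in amnion 2 of 20 were higher and 2 lower.

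The keratins stood above epiblast in germ cells as well as in amnion. KRT18, KRT8 and KRT19 were higher in germ cells than in epiblast by 2.30 ± 0.50, 1.495 ± 0.45 and 2.27 ± 0.31 (adjusted p = 0.000396, 0.0329 and 1.85e-10), and in amnion by 5.04 ± 0.30, 3.88 ± 0.25 and 3.59 ± 0.19. HAND1 was also higher than in epiblast on both sides, by 3.40 ± 0.87 in germ cells (adjusted p = 0.00563) and 5.36 ± 0.48 in amnion (3.14e-05). Of 22 listed amnion genes tested in germ cells against epiblast, 8 were higher and 1, VTCN1, lower (-4.85 ± 0.92, adjusted p = 2.20e-05). DNMT3B was lower than in epiblast in germ cells (-4.00 ± 0.34, adjusted p = 4.37e-29) and in amnion (-1.45 ± 0.29, 0.0202), from 976.9 to 1124 CPM in epiblast. SFRP1 likewise was lower by 6.42 ± 0.49 on the log2 scale in germ cells and by 1.79 ± 0.27 in amnion. In mitosis genes 4 of 19 tested were lower in germ cells than in epiblast, CENPF among them (-1.01 ± 0.27, adjusted p = 0.0112), and DESeq2 called 2. In amnion edgeR called 0 of 19 and DESeq2 1. At an unadjusted p under 0.05 in edgeR 7 were lower in germ cells and 3 in amnion. Over all genes, 1701 of 12079 and 2180 of 13536 differed at that threshold, in either direction.

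The 2 amnion labels were then compared with each other in embryos 1, 3 and 4, over 8481 genes. The test called 17 genes (0.200%), 5 higher in L-AM1 and 12 higher in L-AM2, with 647 genes at an unadjusted p under 0.05. KRT18 stood at 485, 174 and 190 CPM in L-AM1 of embryos 1, 3 and 4 and at 2755 to 3213 CPM in the 4 sums of L-AM2 (-3.51 ± 0.34, adjusted p = 0.000436). The L-AM1 values fall inside the germ cell range of 127 to 511 CPM. KRT8 was lower in L-AM1 by 2.80 ± 0.33 on the log2 scale (adjusted p = 0.00275), FN1 by 2.10 ± 0.30 (0.00971), TGFBI by 4.42 ± 0.78 (0.0316) and ATP12A by 4.68 ± 0.72 (0.0126). DNMT3B went the other way, at 688, 661 and 1103 CPM in L-AM1 and 14.4 to 88.9 CPM in L-AM2 (3.95 ± 0.64, adjusted p = 0.0191).

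The contrast with germ cells was also fitted against each label alone. Against L-AM1, in embryos 3 and 4, KRT18, KRT8, KRT19, GATA3, TGFBI and SPARC had log2 fold changes of 0.92, 0.47, 0.46, 0.04, 1.80 and 0.04, above 0, none past the threshold (adjusted p = 0.999). Against L-AM2 alone the same 6 genes gave -3.62, -3.29, -1.83, -2.99, -3.81 and -2.22, with adjusted p of at most 0.00420. DNMT3B, TERF1 and SFRP1 were lower in germ cells against L-AM1 alone (-3.59, -3.14 and -7.34; adjusted p = 4.53e-07, 3.86e-05 and 6.42e-11) and not called against L-AM2 alone. Of 52 called genes named here, 42 could be tested against L-AM1 alone, which rests on 2 embryos, and 7 of them kept the call. IGFBP5, FN1, BMP4, ISL1, HEY1, EPCAM, CDH3 and LAMB1 were among the calls lost there, at -1.89, -0.66, -0.75, -1.63, -1.87, -0.91, -0.56 and -0.16 (adjusted p = 0.999), as was SLC2A1, at -1.38 (0.326). Against L-AM2 alone the same 9 genes gave -6.88, -3.20, -3.39, -4.56, -5.19, -2.78, -2.99, -2.85 and -3.02, all past the threshold. SOX17, PDPN and VTCN1 passed against either label, with 9.75 and 6.30 for SOX17, 3.33 and 3.61 for PDPN, and -5.06 and -6.93 for VTCN1. NANOS3, T, KIT and TFCP2L1, higher in germ cells, also lost their calls against L-AM1 alone (adjusted p = 0.865, 0.0656, 0.290 and 0.807). Against L-AM2 alone all of them but KIT (0.250) passed. Between the labels themselves KRT19, GATA3, SPARC, TERF1 and SFRP1 did not pass the test (adjusted p = 0.112, 0.560, 0.370, 0.126 and 0.0719), nor did those 9 genes apart from FN1 (0.0719 to 0.766). The comparison of labels moved with the embryos, with 61, 21 and 108 genes called without embryo 1, 3 and 4.

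**Figure D5:**
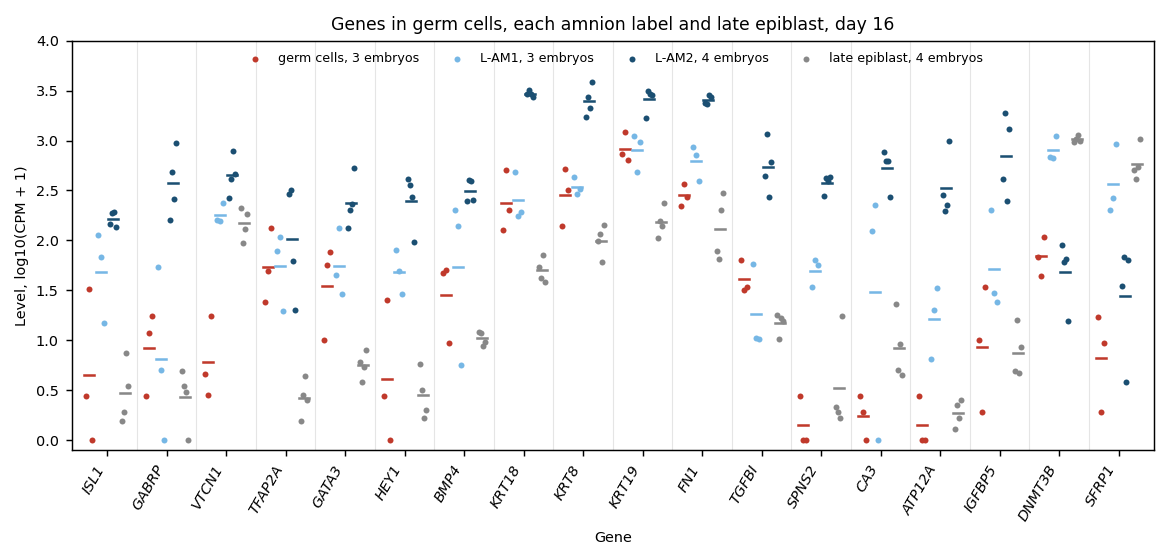
Each point is the level of 1 gene in the summed cells of 1 embryo, as log10(CPM + 1), for germ cells, each amnion label and late epiblast, and bars are means of these log values. In KRT18 and KRT8 the L-AM1 points lie with the germ cells and the L-AM2 points above both, while in DNMT3B and SFRP1 every L-AM1 point lies above every L-AM2 point.

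Cells outside the fit gave a small further reading. The single germ cell of embryo 1 held 11815 counts, and of the 12 genes named by size toward germ cells 5 had a count in it (CPEB1, TMEM119, PCP4L1, PPP1R14C and CDHR1), as did PDPN, with 14 counts, POU5F1, with 26, TFAP2C, with 8, and KIT, with 9. NANOS3, PRDM1, SOX17 and T had 0 counts there. At that depth 1 count, as for TMEM119, corresponds to 84.6 CPM, and 3 counts, as for CDHR1, to 254 CPM. None of the 12 genes named by size toward amnion had a count in it. In 6 amnion cells from 3 embryos of day 17, with 693889 counts, 11 of those 12 amnion genes had a count, such as VTCN1 at 741 CPM, KCNMA1 at 587 CPM and IGFBP5 at 538 CPM, and 2 of the 12 germ cell genes had one (PRDM1, 1 count, and ANO5, 4 counts).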

How the data were processed

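Single cells were sequenced from the 3′ ends of mRNA. The authors deposited 1 table of whole-number counts for 30792 genes and 1453 cells and 1 table with the day and type of every cell, per the file headers. STAR, an aligner, was used per the submitters' processing notes. Its version was not given in the sources used here, nor were the build, counter, filters and use of molecular identifiers. Counting intervals therefore cover counting error only. No further cell filter or doublet caller was used; cells were picked by hand, and cell names carry no barcode. Identifiers with the prefix LOC (16890) were matched by gene ID to RefSeq names of T2T-MFA8v1.1, which named 3273; CPEB1, SOX17, FRY, PCP4L1, CA3, IGFBP5, SPARC, GATA2, MKRN1, WLS and CXCL14 are such genes, and 6.96% of counts stayed without a symbol. Names that had become dates (14) were kept unnamed.

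Counts were summed per embryo and type with at least 3 cells, filtered with filterByExpr, scaled with TMM and tested with edgeR 4.0.16 (glmQLFit, robust, glmQLFTest; R 4.3.3), with the embryo as a block and Benjamini-Hochberg adjustment (threshold 0.05). All adjusted p-values in the text come from this test unless another is named. With no statement of separate mothers, p-values measure how the difference between the sides of an embryo varied over embryos. Printed CPM come from 1 joint TMM scaling of all day 16 sums, per 1000000 counts. Errors of fold changes are standard errors. The test was checked on simulated counts. Same-numbered sums come from the same embryo; their deviations correlated at 0.104, 0.065 and 0.153 in embryos 2, 3 and 4.

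Named genes were the 12 per direction with the largest fold change among called genes that have a symbol, point the same way in every embryo and reach a mean of 50 CPM on the higher side, the markers NANOS3, PRDM1 and ISL1, the cell type markers, and list members taken by adjusted p, up to 6 per list. Members and lists were chosen with earlier results of these data known. Alternatives were DESeq2 1.42.0, limma-voom (limma 3.58.1), other scalings and filters, no block, other cell minimums, per-cell means, thinning to 14258 counts per cell, single amnion labels and each embryo left out. No sequences or coordinates are given, because no build of the counts is named.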

Additional observations from a re-analysis of the deposited data

Results flagged for a closer look

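In 75 groups of 4 embryos checked (amnion levels of the named genes and shares of labels), the highest embryo stood far from the other 3 in 13, all of them gene levels; chance alone gives such gaps in about 1 in 20 groups. Embryo 4 stood apart for SLCO3A1 (203 CPM), TGM2 (154), BMPR2 (498), LAMB1 (665), GAPDH (5567) and TTR (39.7). Embryo 2 stood apart for NTRK2 (594 CPM), KRT7 (27.2) and T (0.756, a single count). Embryo 1, whose amnion is not in the fit with germ cells, stood apart for CPEB1 (1.04 CPM), TMEM119 (5.70), PRKAR2B (35.2) and FOXA2 (2.59). For CPEB1, TMEM119, FOXA2 and T the other embryos were at 0, so any count stood apart. The rate of 1 in 20 does not apply to them. The amnion sum of embryo 4 was the shallowest of the 4, with 450226 counts, and for SLCO3A1 and TGM2 it rested on 1 cell.

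The contrast of germ cells with amnion differed between the 2 amnion labels, by the test of L-AM1 against L-AM2, in 6 named genes. The log2 differences were -4.68 for ATP12A, -3.51 for KRT18, -2.80 for KRT8, -2.10 for FN1, -4.42 for TGFBI and 3.95 for DNMT3B.

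Germ cell genes also appeared in day 16 cells outside the comparison, among them those annotated as gastrulating. In embryo 4 these held 41.1 CPM of NANOS3, 320.1 CPM of SOX17 and 92.6 CPM of T. These sums include 1 L-Gast2 cell, with 289749 counts and 5 of the 6 germ cell markers. It held 110 CPM of NANOS3, 811 CPM of SOX17, 58.7 CPM of TFAP2C and 207 CPM of T, and no PRDM1. SOX17 had a count in 3 of 47 gastrulating cells, and its median over the gastrulating sums of the embryos was 0 CPM. Elsewhere, 1 mesenchyme cell of embryo 2 held 225 CPM of NANOS3 and 1 endoderm cell of embryo 4 held 434.5 CPM of PRDM1.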

How the results depend on the processing

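Of 13 other settings for germ cells against amnion, 10 gave counts within 1.5 times of 223, among them DESeq2 with 301 genes, of which 207 were shared, and limma-voom with 217 (154 shared). The count was 60 with no replicate block, 132 with the mean of per-cell CPM and 48 against L-AM1 alone. Leaving out 1 embryo gave 87 to 218. For germ cells against epiblast (433) it was 129 with no replicate block and 139 to 361 without 1 embryo. For amnion against epiblast (411) it was 250 with no replicate block, 1222 with DESeq2 and 155 to 506 without 1 embryo, and for L-AM1 against L-AM2 (17) it was 9 and 21 to 108. The share of calls higher in germ cells was 26.5% with TMM, 33.7% with total count scaling and 39.2% with limma-voom; total count scaling moved the median of all genes by 0.14 on the log2 scale. Signs reversed against L-AM1 alone for TFAP2A (0.72), GATA3 (0.035), KRT18 (0.92), KRT8 (0.47), KRT19 (0.46), TCF7L2 (1.01), TGFBI (1.80) and SPARC (0.0416), against L-AM2 alone for DNMT3B (0.66), without embryo 2 for TFAP2A (-2.155 to 0.92 over the embryos left out) and without embryo 4 for GATA2 (-0.89 to 3.03); the cause was not tested. Of 52 called genes named in the text, 6 (SOX17, PDPN, VTCN1, GABRP, CA3 and ATP12A) were called in every setting that could test them. GABRP, CA3 and ATP12A could not be tested against L-AM1 alone. In L-AM1 of embryos 3 and 4 GABRP was at 4.07 and 0 CPM, CA3 at 224 and 0 CPM and ATP12A at 19.0 and 32.4 CPM. Against L-AM1 alone 7 of 42 tested kept the call, with 29 lost and 6 reversed, with no replicate block 25 of 48, without embryo 2 23 of 50, without embryo 3 32 of 49, with the mean of per-cell CPM 34 of 52 and with cells thinned to equal depth 32 of 39; the other settings kept 42 or more. A limit of at least 5 cells a sum kept the same sums. The 3 embryos and 18 germ cells limit the precision, as do the 99053 counts of the germ cell sum of embryo 4.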
